A study of Mus musculus with 9 samples.

Results

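The cytosolic ribosomal protein genes were taken from 9 single-colour arrays of mouse jejunum as all genes whose symbol begins with Rpl or Rps followed by a digit, or with Rplp, leaving out the S6 kinases (Rps6k). They were 65 of the 15674 genes named on the array, carried by 160 of the 17302 probes with a symbol. Of these, 25 encode proteins of the small subunit (60 probes), 37 encode proteins of the large subunit (95 probes), and the 62 are called core genes here. The other 3, Rpl36al, Rps27l and Rpl3l (5 probes), are paralogs with symbols of their own and were kept apart. Rplp1 was the only protein of the ribosomal stalk found by the rule.

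Each array was hybridized with jejunal RNA of 1 male OF1 mouse, an outbred stock, from generation 3 of a feeding trial and 7 weeks old. The mice were fed with feed B (mice 7, 8 and 10), feed K (mice 1, 3 and 4) or feed G (mice 4, 8 and 11), 3 mice a feed. They had free access to feed and water, apart from a short fast before dissection in which only the feed was withheld. The meaning of the feed letters is not given in the sources used here, and no feed was taken as the control. A mouse number does not tie mice of different feeds to each other. Sampling hours were neither recorded nor randomized over the feeds, so the hour of sampling and the feed cannot be told apart. The samples are whole pieces of gut wall, in which fewer cells of a type and less RNA per cell cannot be told apart.

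Ribosomal proteins assemble with ribosomal RNA into the small subunit, which decodes the mRNA, and the large subunit, which joins the amino acids. Their mRNAs are among the most abundant of a cell, typically begin with a C followed by a run of pyrimidines (the 5' terminal oligopyrimidine tract), and are translated together under control of the kinase mTOR. Ribosomal protein genes are widely used as reference genes, and Rps29 and Rpl4 were among the candidates whose stability the study compared. They also have many processed pseudogenes in the genome, so that a probe can match several near-identical sequences, and the transcript behind a probe is uncertain.

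The start regions of 10 genes on which the results below turn are shown from 30 bases before to 30 bases from the annotated start, with the longest run of C and T in capitals, because the tract at the start is the feature the family is known for. The sequences are from RefSeq on GRCm38.p6, where 48 of the 65 member symbols had an entry (Rps3a as Rps3a1). They lie at Rps6 at chr4:86857338-86857397 (minus strand), Rpl28 at chr7:4792935-4792994 (plus strand), Rpl18 at chr7:45718041-45718100 (plus strand), Rpl38 at chr11:114668550-114668609 (plus strand), Rpl4 at chr9:64173357-64173416 (plus strand), Rpl14 at chr9:120571487-120571546 (plus strand), Rps28 at chr17:33824533-33824592 (minus strand), Rpl10 at chrX:74270786-74270845 (plus strand), Rpl23 at chr11:97782410-97782469 (minus strand) and Rps21 at chr2:180257349-180257408 (plus strand).
Rps6: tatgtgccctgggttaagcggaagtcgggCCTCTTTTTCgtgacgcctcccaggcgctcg
Rpl28: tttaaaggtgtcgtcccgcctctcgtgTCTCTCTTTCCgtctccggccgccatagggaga
Rpl18: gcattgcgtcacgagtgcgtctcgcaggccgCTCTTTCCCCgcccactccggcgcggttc
Rpl38: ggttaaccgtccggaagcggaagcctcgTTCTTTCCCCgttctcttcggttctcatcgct
Rpl4: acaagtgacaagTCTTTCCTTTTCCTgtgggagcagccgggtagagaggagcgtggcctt
Rpl14: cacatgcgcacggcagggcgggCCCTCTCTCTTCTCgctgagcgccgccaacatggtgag
Rps28: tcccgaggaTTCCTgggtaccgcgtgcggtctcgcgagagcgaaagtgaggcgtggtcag
Rpl10: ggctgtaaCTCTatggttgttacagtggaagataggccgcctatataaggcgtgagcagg
Rpl23: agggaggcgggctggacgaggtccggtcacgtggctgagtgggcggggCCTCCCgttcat
Rps21: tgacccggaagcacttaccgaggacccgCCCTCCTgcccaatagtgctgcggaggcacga
In Rps6, Rpl28, Rpl18, Rpl38, Rpl14 and Rpl4 the longest run spans 10 to 14 bases and begins within 18 bases of the annotated start. In Rps28, Rpl10, Rpl23 and Rps21 the longest run in this stretch has 4 to 7 bases. Over the 45 core genes with an entry, the first one listed per symbol, 21 (46.7%) had a run of at least 8 pyrimidines within 25 bases of the start on the coding strand, compared with 19.4% of all 27025 symbols. The letters CTTTCC stood in the same stretch of 7 of the 45 (15.6%, against 2.42% of all promoters), and CCGGAA, the core of the motif bound by ETS factors, stood on either strand of the 300-base window of 23 (51.1%, against 15.2%). TATAAA was found between 40 and 10 bases before the start in 0 of the 45 (2.3% of all promoters), and ATGGCG between 30 bases before and 50 bases after it in 2 (4.44%, against 2.72%). A match describes letters in a window and is neither a bound site nor a cause of the signals below.

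The arrays detected 33.7% to 48.1% of their probes, where a spot counted as detected if its signal-to-noise ratio reached 3, and the lowest shares were those of mice 8 and 7 of feed B. All 6 epithelial markers with a probe, Fabp1, Fabp2, Vil1 (as Vil), Cdx1, Cdx2 and Apoa4, were detected on all 9 arrays. Of the 5 markers of exocrine pancreas 0 were detected on all arrays and 3 on none. The ileal marker Fabp6, which carries bile acids in the distal gut, reached detection on 8 arrays, with log2 signals from 8.10 to 19.51 there, so the segments were not alike in this respect. Of the B and T cell markers 2 of 7 were detected on all arrays, and the summed signal of the 7 ranged from 3365 to 6421 in feed B, from 1214 to 5680 in feed K and from 2878 to 6058 in feed G. The part of these differences in the results below was not tested.

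Nearly all core genes were detected in every mouse. Of the 62 core genes, 58 were detected by at least 1 probe on all 9 arrays, compared with 37.6% of all genes. These were 22 of 25 genes of the small and 36 of 37 of the large subunit. The exceptions were Rps27a, which encodes ubiquitin fused to a small-subunit protein (0 arrays), Rps3, a small-subunit protein at the mRNA entry (1 array), the large-subunit gene Rpl37 (1 array) and Rps21 (7 arrays). Each of the 4 had a single probe. Its median signal-to-noise ratio was 1.19 for Rps27a, 0.63 for Rps3, 0.73 for Rpl37 and 10.1 for Rps21, so for the first 3 the arrays give no usable level. The brightest probes of the 58 others had median signal-to-noise ratios from 14.2 to 123, with a median of 71.9 over the genes, against 27.9 over all genes detected on all 9 arrays.

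Probes with the same symbol often did not report the same signal. Of the 47 core genes with several probes, 24 had a probe detected on all 9 arrays and another detected on 4 arrays or fewer, compared with 22.2% of the 1456 genes of the array with several probes. They were 13 of 19 such genes of the small subunit and 11 of 28 of the large subunit. In 20 of the 47 (6 small, 14 large) every probe was detected on all 9 arrays. Counted by probe, 126 of 160 (78.8%) were detected on all arrays, 5 on 5 to 8, 20 on 1 to 4, and 9 on none, and the share detected on all arrays was 71.7% of the small-subunit and 84.2% of the large-subunit probes. Over all probes with a symbol this share was 36.5%.

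The widest disagreement between probes of 1 symbol was that of Rps12, Rps27 and Rps2, and further genes with a probe at 0 arrays beside others at 9 were Rpl38, Rpl35a, Rps15a and Rps28. The bright probe of Rpl38, a large-subunit protein known for its role in patterning of the skeleton, had signal-to-noise ratios from 33.8 to 94.8, and the other probe had ratios from -1.64 to 0.69. For Rps28, a small-subunit protein, the bright probe lay between 50.8 and 115 and the dim probe between -1.66 and 0.77. Neither pair overlapped on any array. The gene with the most probes was Rpl21, with 13 of 14 probes detected on all arrays and 1 on 2, followed by Rps2 with 9 of 10 detected on all arrays and 1 on none. Since the deposited tables give no probe sequences, which transcript or pseudogene each probe reads is not known here.

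**Figure D1:**
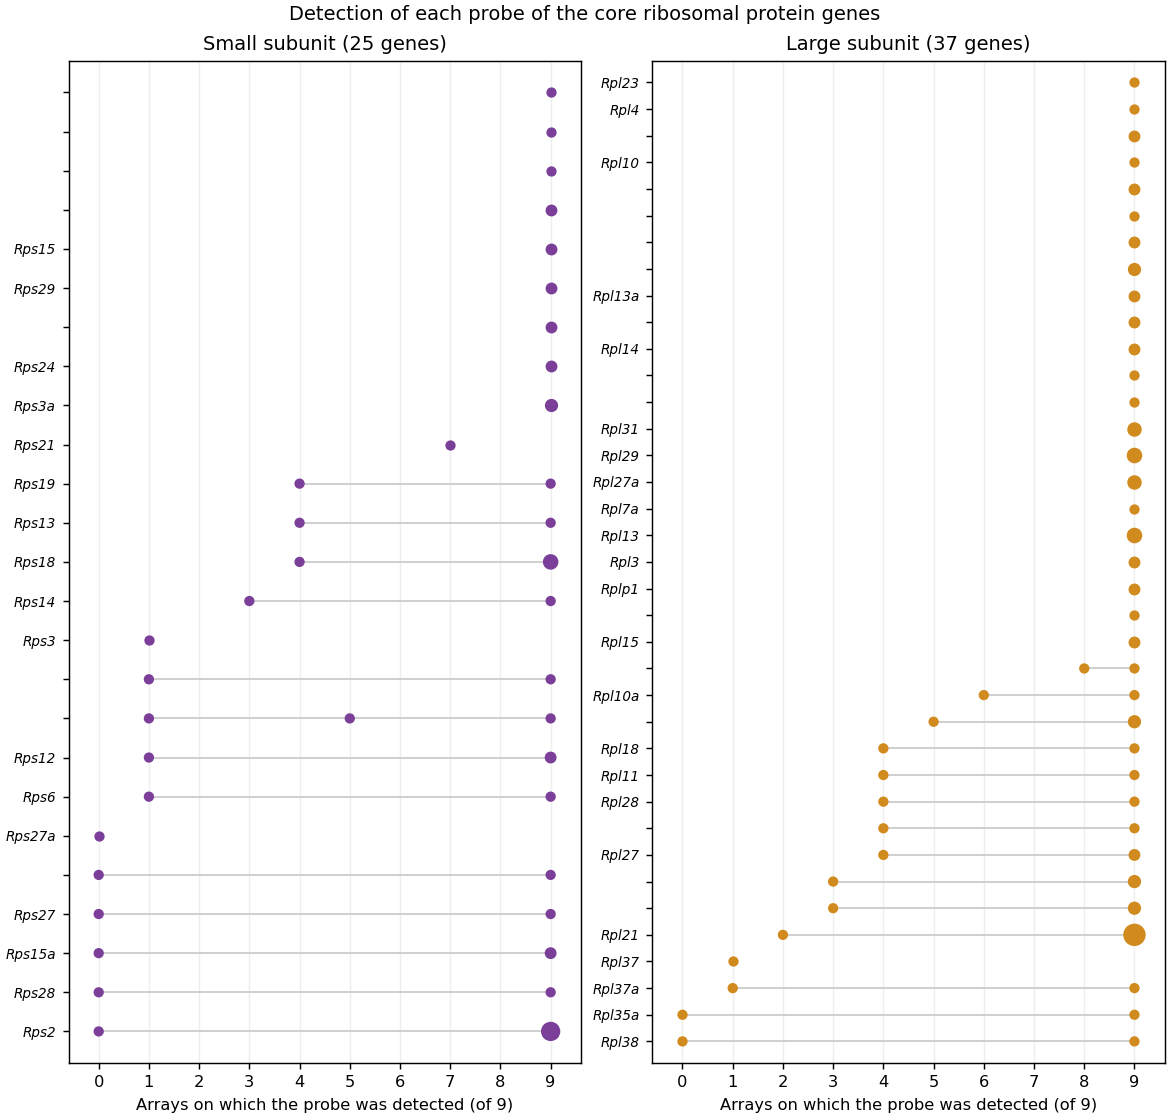
Number of the 9 arrays on which each probe was detected (x axis, ratio of signal to noise reaching 3) for the 25 small-subunit and 37 large-subunit genes (rows). Larger circles stand for several probes of the gene at the same count, a grey line joins probes of one gene, and genes named in the text are labelled. In 24 genes a circle at 9 arrays is joined to one at 4 or fewer.

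This split bears on how uniform the genes appear, since the signal of a gene was averaged over its probes on the log2 scale and a probe at noise level adds its own scatter. With probes averaged, the median SD of log2 signal over the 9 mice was 0.22 for the 58 core genes, compared with 0.29 for all genes detected on all arrays. The values were 0.23 for the small and 0.20 for the large subunit. The range over the mice was at most 2-fold in 45 of the 58 genes (77.6%), against 57.8% of all genes. With the brightest probe of each gene instead, the median SD was 0.16 for core genes and 0.28 for all genes, and 56 of the 58 core genes stayed within 2-fold (96.6%, against 60.9%). These were all 22 of the small subunit (median SD 0.14) and 34 of 36 of the large subunit (median SD 0.16). Averaging only probes detected on at least 5 arrays placed 54 of 58 within 2-fold (59.9% of all genes).

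Brighter probes scatter less on this array. Of the 58 core genes 54 fell among the 1468 genes with the highest signal-to-noise ratio of their brightest probe (46.7 to 123), and over all these 1468 genes the median SD was 0.24 and 71.9% lay within 2-fold. Over the 1469 genes with the lowest ratios (4.09 to 16.4) these values were 0.35 and 42.2%. The scale of the arrays also matters: with median scaling 24 of the 58 core genes stayed within 2-fold with probes averaged (24.8% of all genes) and 29 in the authors' series table (36.6%).

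**Figure D2:**
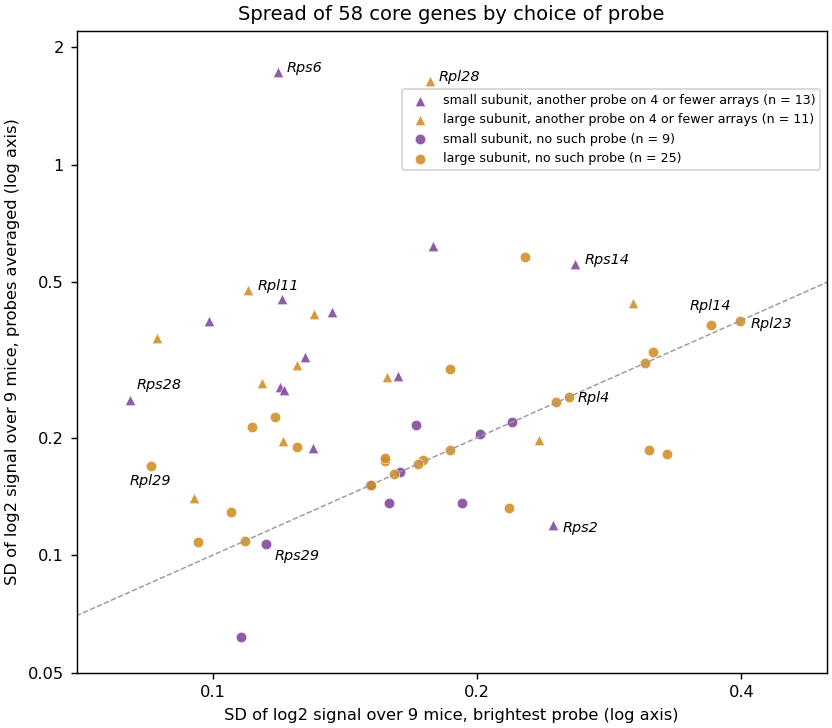
SD of log2 signal over 9 mice for the 58 core genes detected on all arrays, from the brightest probe (x axis) and with all probes averaged (y axis), both axes logarithmic. Triangles are genes with a further probe detected on 4 or fewer arrays, circles are all others, and the dashed line marks equal SD. Rps6 and Rpl28 lie far above the line, with SDs of 1.73 and 1.64 averaged against 0.12 and 0.18 from the brightest probe.

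Rps29, a small zinc-binding protein of the small subunit, and Rpl4, a large-subunit protein lining the exit tunnel, were the ribosomal genes among the reference candidates that the study compared. Rps29 had 2 probes detected on all arrays, and its averaged log2 signal was 16.50, 16.47 and 16.47 in feed B, 16.34, 16.20 and 16.47 in feed K, and 16.28, 16.42 and 16.28 in feed G. All mice lay within a 1.23-fold range (SD 0.11), and the feeds overlapped except that the feed G values stayed below those of feed B. On its brightest probe alone, feed G (16.39 to 16.65) and feed B (16.48 to 16.68) overlapped. Rpl4, with 1 probe, had 11.37, 11.38 and 10.87 in feed B, 11.04, 10.63 and 11.31 in feed K, and 11.14, 10.91 and 11.22 in feed G. Its range was 1.68-fold (SD 0.25), with mouse 3 of feed K lowest and all feeds overlapping.

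Among the small-subunit genes with the smallest averaged SD were Rps29, Rps2 (0.12) and Rps15 (0.14), and those of the large subunit were Rpl31 (0.11), Rpl7a (0.11), Rpl3 (0.13) and Rpl27a (0.13). Rps15 and Rpl3, a protein near the peptidyl transferase centre, had 2 probes each, all detected on all arrays. The 9 averaged values of Rpl3 ran from 14.39 to 14.72 with a median of 14.54, a 1.26-fold range in which the 3 mice of feed G lay above all others. On its brightest probe alone, mouse 4 of feed K (15.84) lay above mice 8 and 11 of feed G (15.81 and 15.83). From the brightest probe the smallest SDs included those of Rps28 (0.08), Rps13 (0.10) and Rps29 (0.12) in the small subunit and were those of Rpl29 (0.09), Rpl18 (0.09), Rpl21 (0.10) and Rpl31 (0.10) in the large subunit. The bright probe of Rps28 had log2 signals of 16.39, 16.35 and 16.25 in feed B, 16.21, 16.22 and 16.41 in feed K and 16.36, 16.25 and 16.23 in feed G. Averaged with its probe at noise level, the same gene had an SD of 0.25. Rpl29, with 5 probes detected on all arrays, ranged 1.23-fold from its brightest probe and 1.43-fold averaged.

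At the other end stood genes for which 1 left-out spot sets the averaged value. Rps6, the small-subunit protein phosphorylated by the S6 kinases, had averaged log2 signals of 12.10, 12.56 and 16.70 in feed B, 11.55, 11.42 and 11.42 in feed K, and 12.50, 11.13 and 11.32 in feed G. The high value of mouse 10 of feed B is the bright probe alone, since the spot of the dim probe (detected on 1 array) had a failed flag there and was left out. The bright probe itself gave 17.07, 16.85 and 16.70 in feed B, 16.74, 16.67 and 16.81 in feed K, and 16.88, 16.83 and 16.82 in feed G, a 1.32-fold range instead of 47.3-fold. Rpl28, whose dim probe was detected on 4 arrays, had the same kind of spot in mouse 8 of feed B (16.20, against 10.78 to 12.26 in the other mice) and a 1.53-fold range from the bright probe instead of 43.0-fold. The paralog Rpl36al had it in mouse 3 of feed K (14.87, against 9.95 to 11.20) and a 1.27-fold range from the bright probe instead of 30.3-fold. These were the 3 failed spots among the 1440 spots of the members. With failed spots kept, the averaged SD was 0.59 for Rps6, 0.60 for Rpl28 and 0.43 for Rpl36al.

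The other genes with the largest averaged SD in each subunit also had a further probe that was detected on 6 arrays or fewer. They included Rps19 (0.62), a gene known from Diamond-Blackfan anemia, and Rps14 (0.56) in the small subunit, and Rpl10a (0.58), Rpl11 (0.48), which binds the ubiquitin ligase Mdm2, and Rpl27 (0.44) in the large subunit. From their brightest probes these SDs were 0.18 for Rps19, 0.26 for Rps14, 0.23 for Rpl10a, 0.11 for Rpl11 and 0.30 for Rpl27.

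Some large-subunit genes varied more between mice from the brightest probe too. The largest SDs from the brightest probe were those of Rpl23 (0.40), Rpl14 (0.37), Rpl15 (0.33) and Rpl13a (0.32), and in the small subunit they included those of Rps14 (0.26), Rps2 (0.24) and Rps24 (0.20). For Rps2 this depends on the probe: its 9 probes detected on all arrays had SDs from 0.11 to 0.24, and its averaged SD was 0.12. The ranges of Rpl23 (2.10-fold) and Rpl14 (2.04-fold) were the only ones above 2-fold among the 58 genes. The single probe of Rpl23 had signal-to-noise ratios from 4.8 to 26.7. Rpl14 had log2 signals of 15.58, 15.00 and 15.96 in feed B, 15.57, 15.65 and 15.10 in feed K, and 15.72, 15.98 and 16.03 in feed G. Mouse 8 of feed B and mouse 4 of feed K were low within their feeds, and feed G overlapped with feed B but not with feed K. Rpl13a, which leaves the ribosome to silence mRNAs in interferon-treated cells, had 17.95, 17.34 and 17.98 in feed B, 17.55, 17.93 and 17.35 in feed K, and 17.91, 18.11 and 18.19 in feed G, with the same mice low. The brightest probe of Rpl15 was likewise lowest in these 2 mice, at 15.71 in each, with the other 7 between 15.87 and 16.57. Its other probe, also detected on all arrays, was not: it had 14.24 and 14.14 there and was lowest in mouse 3 of feed K (13.91). The other probe of Rpl14 was lowest in mouse 4 of feed K (9.92), but mouse 8 of feed B (11.39) lay above mouse 10 of that feed (11.32). The other probe of Rpl13a had the same 2 mice lowest (15.66 and 15.48).

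Compared between mice after quantile normalization, the core genes differed by little, and mouse 3 of feed K was the lowest of the 9 most often. Each gene of the 58 was set against its own mean over the 9 mice, from the brightest probe. In mouse 3 of feed K 7 of the 58 lay above their mean (41.5% of all genes did), in mouse 1 of feed K 23 (62.3%) and in mouse 4 of feed K 25 (59.4%). In feed G 48 of 58 were above their mean in mouse 4 (52.6% of all genes), 35 in mouse 8 (46.8%) and 37 in mouse 11 (46.4%). Feed B was split, with 48 in mouse 7 (46.4%), 32 in mouse 8 (59.1%) and 23 in mouse 10 (47.0%). Mouse 3 of feed K was the lowest of the 9 in 20 of the 58 core genes (34.5%, compared with 10.3% of all genes). Mouse 4 of feed K was lowest in 15 and mouse 1 of feed K in 4, beside 7 for mouse 8 and 6 for mouse 10 of feed B. Together, the mice of feed K were lowest in 39 of the 58 (67.2%, compared with 26.9% of all genes), though few of these came from mouse 1. The median deviations ran from -0.13 on the log2 scale in mouse 3 of feed K to 0.10 in mouse 7 of feed B, and the medians of both subunits had the same sign in every mouse. The ranks of the mice were not taken under another scaling. From the brightest probe, feed K less feed B was above 0 in 9 of the 59 core genes tested with quantile normalization. It was above 0 in 58 with median scaling and 36 in the series table. The medians of all genes were 0.05, 0.41 and 0.22 in the same order.

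**Figure D3:**
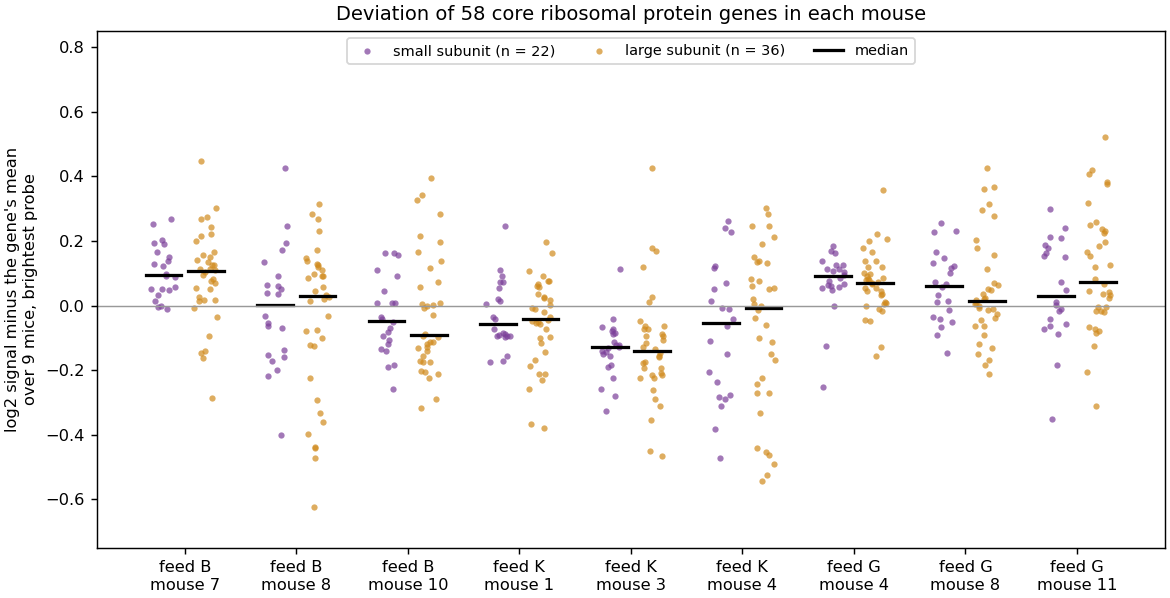
Quantile-normalized log2 signal of the brightest probe minus the gene's own mean over 9 mice (y axis) in each mouse (x axis). Shown are 22 small-subunit and 36 large-subunit genes detected on all arrays. Each point is 1 gene and the bars are medians. In mouse 3 of feed K 7 of the 58 points lie above 0, the fewest of any mouse.

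For the feeds, the question was whether the mRNA level of any ribosomal protein gene differed between mice on feeds B, K and G. Of the core genes, 59 were detected on at least 3 arrays and were tested. In the moderated F test of limma across feeds, 0 of these 59 genes passed an adjusted p of 0.05, as did 0% of the 9654 genes tested, and the smallest adjusted p of a core gene was 0.837. At an unadjusted p below 0.05 the count was 4 of 59, Rps21, Rpl11, Rpl10 and Rpl23, against 5.37% of all genes. From the brightest probe 0 passed the adjusted p (0% of 9612 genes), and the unadjusted count was 3 of 59 (5.39%), as Rpl11 dropped out.

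Rps21 gave the smallest unadjusted p (0.0163). Its log2 signals were 6.80, 8.10 and 8.02 in feed B, 8.53, 8.58 and 8.70 in feed K, and 8.71, 8.74 and 9.25 in feed G. All mice of feed B lay below all others, and its probe was below the detection limit in mice 7 and 8 of feed B, at signal-to-noise ratios of 2.19 and 2.80. The difference of the log2 means was 0.96 ± 0.35 (SE) for feed K less feed B, written K minus B, and 1.26 ± 0.35 for G minus B. These differences rest on feed B values near or below the detection limit. Feed B also held the arrays with the lowest shares of detected probes.

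Rpl10, a protein that joins the large subunit late in its assembly, had 12.96, 12.72 and 12.73 in feed B, 12.61, 12.58 and 12.60 in feed K, and 13.04, 13.12 and 13.23 in feed G. After quantile normalization the 3 feeds did not overlap, in the order K, B, G. The deposited signals, not scaled between arrays, ran from 4497 to 6382 in feed B and from 4194 to 9100 in feed K. In feed G they ran from 8635 to 12597, so that feed K overlapped with both other feeds there. G minus K was 0.53 ± 0.16, with an adjusted p of 0.960. Rpl23, another binder of Mdm2, had 10.33, 9.97 and 9.56 in feed B, 9.67, 9.43 and 9.34 in feed K, and 10.24, 9.99 and 10.40 in feed G. Feeds G and K did not overlap (0.73 ± 0.24, adjusted p = 0.960), whereas feed B overlapped with both. The unadjusted p of Rpl11 was 0.0207 averaged, from differences of 0.79 ± 0.26 for K minus B and 0.81 ± 0.26 for G minus B. They arose with its probe that was detected on 4 arrays, none of them of feed B. Its bright probe gave feed means of 16.69 ± 0.06 for B, 16.69 ± 0.02 for K and 16.88 ± 0.10 for G (SD, n = 3). Among the next smallest unadjusted p values of the F test were those of Rps13 (0.132), Rps6 (0.112) and Rpl37a (0.0564) with probes averaged. Their brightest probes gave 0.578, 0.691 and 0.709, and the averaged value of Rps6 leaves out the failed spot described above.

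**Figure D4:**
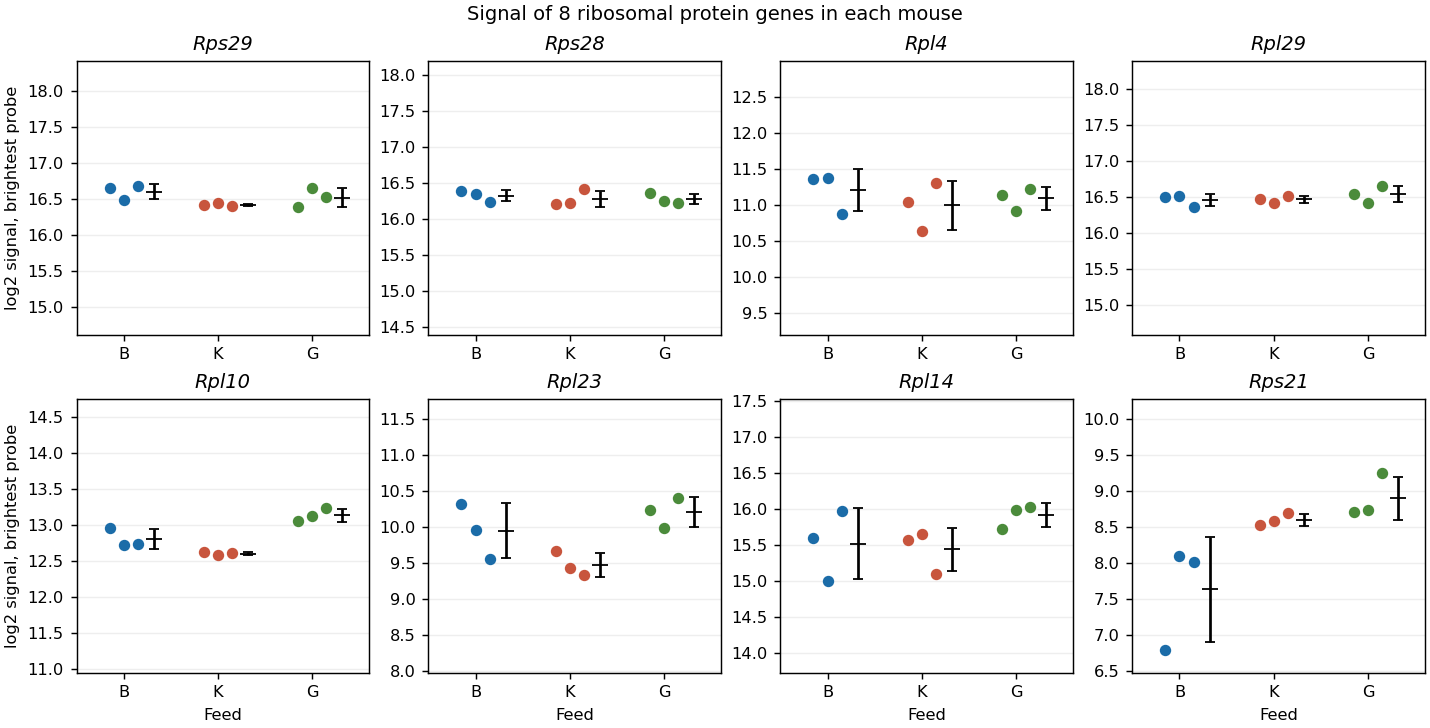
Log2 signal of the brightest probe (y axis) by feed (x axis) for 8 genes. Points are single mice, and the black bars give the mean and SD of the 3 mice. Each panel spans the same height on the log2 scale but has its own level. After quantile normalization the feeds did not overlap for Rpl10, and feed B lay below the others for Rps21.

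By pairs of feeds, 0 core genes passed the adjusted threshold of 0.05 in K minus B, G minus B or G minus K, as did 0% of all genes in each. At an unadjusted p below 0.05, K minus B had 2 core genes higher (4.34% of all genes) and 1 lower (1.98%). G minus B had 2 higher (3.84%) and 1 lower (1.9%), and G minus K had 4 higher (2.14%) and 0 lower (2.39%). The 4 were Rpl10, Rpl23, Rpl14 and Rpl13a, all of the large subunit. From the brightest probe the counts were 1 and 0 for K minus B (4.28% and 2.04%), 1 and 0 for G minus B (3.8% and 1.87%), and 2 and 0 for G minus K (2.22% and 2.41%). Since each pair shares its mice with another pair, the 3 differences are not independent of each other.

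As a list the core genes had small differences in their medians. The median over the 59 genes was -0.08 for K minus B (all genes 0.05), 0.09 for G minus B (all genes 0.06), and 0.18 for G minus K (all genes -0.01), on the log2 scale. From the brightest probe the medians were -0.09 (all genes 0.05), 0.01 (all genes 0.05) and 0.11 (all genes -0.01). For G minus B the core genes thus lay above the median of all genes with probes averaged and below it from the brightest probe. For G minus K the difference was above 0 in 17 of 23 small-subunit genes (median 0.17) and 30 of 36 large-subunit genes (median 0.19), compared with 49.1% of all genes. For K minus B it was above 0 in 6 of 23 small-subunit (median -0.09) and 11 of 36 large-subunit genes (median -0.07), compared with 56.9% of all genes. The sign of the median for K minus B depends on the scaling of the arrays: median scaling gave 0.22, when the median of all genes was 0.41, and the series table gave 0.01, when it was 0.21. Relative to the median of all genes it was -0.14 with quantile normalization, -0.18 with median scaling and -0.20 in the series table, and G minus K was 0.19, 0.26 and 0.26. With median scaling 27 of the 59 genes had an unadjusted p below 0.05 for G minus B (18.6% of all genes), against 3 with quantile normalization, and 0 passed the adjusted p under either. No test was made on the list as a whole. Beside it, the 7 B and T cell markers had median differences of -1.07 for K minus B, -0.23 for G minus B and 0.72 for G minus K, and the 6 epithelial markers 0.40, 0.05 and -0.37, with 0 passing the adjusted p. The part of these cells in the medians of the core genes was not tested.

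**Figure D5:**
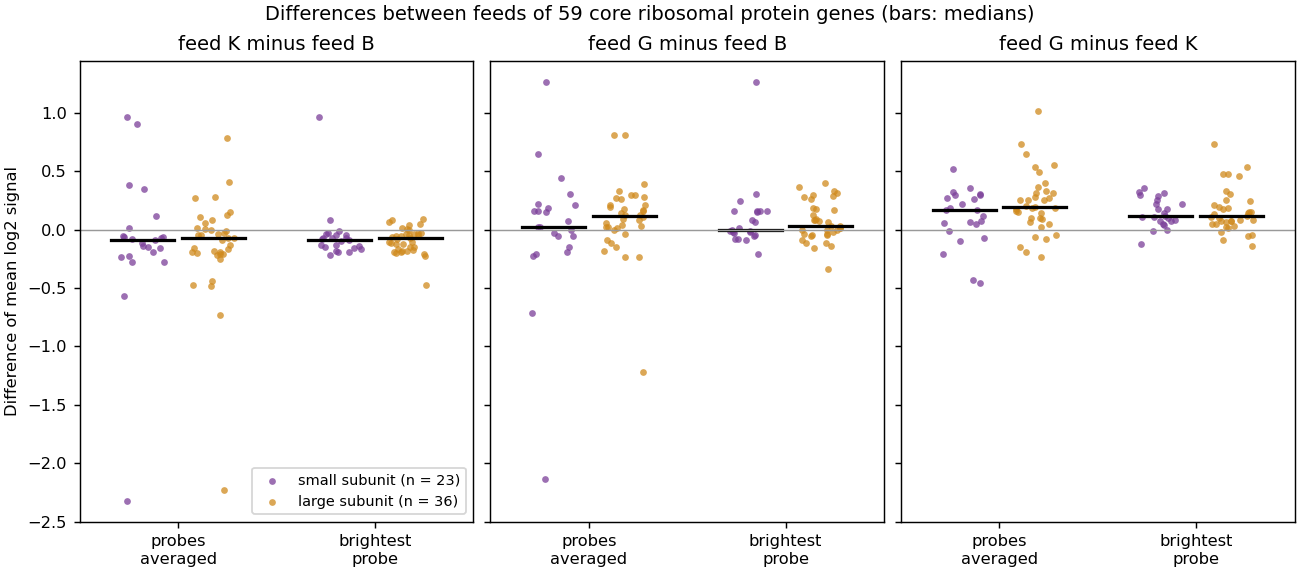
Difference of mean log2 signal between 2 feeds (y axis) for the 59 core genes tested, 23 of the small and 36 of the large subunit, with probes averaged or from the brightest probe (x axis). Each point is 1 gene and the bars are medians. Rps21, with a single probe, has the same values in both, 0.96 for K minus B and 1.26 for G minus B, and most genes lie above 0 for G minus K.

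Genes with many probes show how closely probes of 1 symbol agree on a feed difference. For the 13 probes of Rpl21 detected on all arrays, K minus B ran from -0.27 to -0.07 and G minus K from 0.00 to 0.49, all with the same sign, whereas G minus B ran from -0.24 to 0.28 with 7 of 13 above 0. For the 9 probes of Rps2, at the mRNA entry of the small subunit, K minus B ran from -0.04 to 0.08 and G minus K from -0.13 to 0.24. The 5 probes of Rps18 and the 5 of Rpl29 were above 0 for G minus K without exception (0.04 to 0.25 and 0.07 to 0.50). The 5 of Rpl13 were not, at -0.12 to 0.39, and 1 of them had an SD of 0.52 over the mice against 0.16 for the steadiest. Probes of one gene may overlap or share a transcript and are no replicates.

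Rplp1, an acidic protein of the ribosomal stalk, had 2 probes on all arrays, an averaged SD of 0.18 and a range of 1.34-fold. Its feed means were 17.54 ± 0.23 in B, 17.45 ± 0.19 in K and 17.59 ± 0.15 in G (SD, n = 3), and they overlapped. The stalk protein Rplp0 was carried under the older symbol Arbp, named here by its RefSeq accession, with an averaged SD of 0.19 and a 1.52-fold range. Of the paralogs, Rps27l, a target of p53, had 2 probes on all arrays. Its brightest probe gave 15.37, 15.42 and 15.30 in feed B, 15.30, 15.25 and 15.47 in feed K, and 15.09, 15.05 and 15.19 in feed G. On this probe feed G lay below both other feeds without overlap, with a difference of -0.25 ± 0.15 (SE) for G minus B (adjusted p of limma's F test 0.902). On its other probe feed G (8.57, 8.53 and 8.74) stayed below feed B but overlapped with feed K (8.45, 9.02 and 8.52). Rpl3l, a paralog known from muscle, was detected on 0 arrays.

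Other genes of the ribosome and its supply were examined from lists. Of ribosomal proteins and partners with other symbols, 3 of 4 with a probe were detected on all arrays, among them Fau, which encodes a fusion with a ubiquitin-like protein, while Rpsa (as Lamr1) was detected on 0. Fau had an SD of 0.31 with probes averaged and 0.15 from the brightest probe, and an unadjusted p of 0.343. Of translation elongation factors and other mRNAs with a pyrimidine tract, 11 of 13 were detected on all arrays and 0 of 12 tested passed the adjusted p. Pabpc1, the poly(A)-binding protein, had the smallest unadjusted p (0.0231, adjusted p 0.894), with a difference of 1.15 ± 0.34 (SE) for K minus B. Of genes for ribosome biogenesis 22 of 33 were detected on all arrays and 0 of 31 tested passed, with Nop10 (as Nola3), of the pseudouridylation complex, at an unadjusted p of 0.0398. Sbds, which acts in the release of Eif6 from the large subunit, had an SD of 0.03 and a 1.09-fold range.

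The S6 kinases and the mTOR complex, which act on Rps6 and on pyrimidine-tract mRNAs, were detected less often than the lists above. Of 17 genes 6 were detected on all arrays, a share near that of all genes (37.6%). Those detected on none were 4, Mtor (as Frap1), Rptor (as 4932417H02Rik), Rps6kb1 and Rps6kl1. Of the 9 tested 0 passed the adjusted p, and the smallest unadjusted p was that of Rheb, the activator of mTOR (0.0673). The median SDs of the genes detected on all arrays were 0.24 for the partners, 0.23 for the elongation list, 0.24 for ribosome biogenesis and 0.31 for the kinase list, beside 0.22 for the core genes, all with probes averaged. In all 4 lists 0 genes passed the adjusted p for any pair of feeds in either direction.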

How the data were processed

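Jejunal RNA of 9 mice, 3 per feed (B, K and G), was measured on single-colour chemiluminescence arrays of 60-mer probes. The deposited signal intensity was background corrected and spatially normalized within each array by the scanner software. The deposited signal-to-noise value is a score, the signal over its standard deviation, and the deposited flag has no unit. The authors' series table holds the intensity after an assay normalization (297108 of 297108 values were identical to that column).

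Failed spots, flagged above 5000, were removed, and signals were quantile normalized with the arithmetic mean over 33012 probes (limma 3.58.1, R 4.3.3), transformed to log2, and averaged per gene symbol. A probe counted as detected where signal over noise reached 3. The 9654 genes detected on at least 3 arrays were tested with limma's moderated F test and pairwise contrasts, with Benjamini-Hochberg adjustment over all of them at 0.05. The fit was tested on simulated data with known changes. Where stated, values are also given from the brightest probe of each gene, that with the highest mean signal; all others are averages over probes. Depth has no meaning for arrays, and their number, 9, limits the precision.

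The members and lists were chosen with earlier results of these data known. Genes named are Rps29 and Rpl4, the 4 of each subunit with the smallest or largest SD, the 4 with the smallest p of the F test, Rplp1, Rps6, Rps27a, the paralogs, core genes not detected on all arrays, the 3 with the widest probe disagreement, genes with an outlying mouse, and the gene of each list with the smallest p. Genes named beyond these, such as Rpl35a, Rps15a, Rps18, Rpl13, Fau and Sbds, were chosen after their values were seen. Some genes that this rule names are not reported here. Alternatives were median scaling, the series table, kept failed spots, other detection filters, probes with 1 symbol, an unmoderated test and leaving out each mouse. Averaging of detected probes, and the brightest probe with another scaling, were added after seeing the data. Of 160 member probes 128 carried a RefSeq accession and 127 matched the gene table. Values were summarised with Python 3.11.15, pandas 2.3.3 and numpy 2.4.6.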

Additional observations from a re-analysis of the deposited data

Results flagged for a closer look

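With probes averaged, 8 of the 60 members detected on all arrays had 1 mouse whose gap to the nearest other mouse, as a share of the whole range, was above Dixon's limit for 9 values. Of these, 7 are given here. Chance alone gives about 3 such genes among 60. The mouse stood high in Rpl36al (mouse 3 of feed K, share 0.745), Rps6 (mouse 10 of feed B, 0.744) and Rpl28 (mouse 8 of feed B, 0.728), which are the 3 values left with the bright probe alone after a failed spot was left out. It also stood high in Rps28 (mouse 7 of feed B, 0.497) and Rpl38 (mouse 7 of feed B, 0.513), each of which has a probe detected on 0 arrays. It stood low in Rps2 (mouse 8 of feed B, 0.515) and Rpl14 (mouse 4 of feed K, 0.554). From the brightest probe 0 of the 60 members had such a mouse.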

How the results depend on the processing

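In every alternative run, 0 core genes passed the adjusted p for the F test or for any pair of feeds, and all 759 alternative values of the 38 named genes stayed on the same side, with a lowest adjusted p of 0.219. Median scaling moved the median differences of the core genes to 0.22 for K minus B, 0.57 for G minus B and 0.38 for G minus K, and the count of genes within 2-fold to 24. The authors' series values gave 0.0145, 0.33 and 0.33 for the same pairs, and a count of 29. All genes shifted with them, to medians of 0.41, 0.53 and 0.12 with median scaling and 0.21, 0.30 and 0.07 in the series values. From the brightest probe, G minus B was 0.0117 and G minus K was 0.11. The brightest probe with median scaling gave 0.24, 0.56 and 0.34, and with the series values 0.0375, 0.35 and 0.33. The cause of these shifts was not tested. Leaving out 1 mouse at a time, G minus B ran from 0.0558 to 0.15 (0.15 without mouse 7 of feed B), G minus K from 0.15 to 0.22, K minus B from -0.14 to -0.05, and the count within 2-fold from 45 to 47. Of 180 alternative values of the list results, 163 stayed the same by these criteria. No paired analysis was possible because the feeds share at most 1 mouse number per pair and the numbers do not mark shared animals. A batch block was not run, since the headers give 9 barcodes and 1 folder name and no batch that holds several arrays apart from the rest. Probes near background limit what can be said of Rps27a, Rps3, Rpl37 and Rps21.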
